A study of Mus musculus with 4 samples.

Results

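The 9 genes described here, Tuba1a, Hprt, Gapdh, Actb, Tbp, Ppia, Gusb, Ywhaz and Sdha, are commonly used as reference genes in quantitative RT-PCR (qRT-PCR). The study's methods name Tuba1a and HPRT1 (Hprt in the mouse) as the genes that its qRT-PCR was normalized to. A legend of its qRT-PCR in mouse embryonic fibroblasts names Tuba1a alone. Human lung fibroblasts were assayed as well, and the methods do not say for which cells HPRT1 was used. They were chosen by name. All 9 were found among the 25909 genes that could be named in an RNA-seq table of 63759 transcripts, where each gene was represented by the transcript with the longest gene body on its strand. RNA was sequenced from C57BL/6 mouse embryonic fibroblasts (MEF), taken from whole embryos at embryonic day 15.5 and immortalized with SV40, so all 4 groups carried the viral immortalization. The groups were Hmga2+/+ Ctrl, Hmga2+/+ TGFB1, Hmga2-/- Ctrl and Hmga2-/- TGFB1. Hmga2-/- MEF lacked Hmga2, which encodes an architectural chromatin protein, and carried this loss in every cell. All MEF were kept overnight in medium with 1% FCS, and the TGFB1 groups then received 10 ng/ml of human recombinant TGFB1, a cytokine that turns fibroblasts toward the contractile, matrix-producing myofibroblast state, for 24 h. Each group was 1 library, so no value below has a replicate error, no 2 groups could be compared by a test, and a difference between genotypes cannot be told apart from a difference between the MEF lines.

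A reference gene serves qRT-PCR only if its transcript level stays the same across the compared conditions, because every target is divided by it. The usual candidates come from unrelated basic functions: the cytoskeleton (Tuba1a, an alpha tubulin, and Actb, cytoplasmic beta-actin), metabolism (Gapdh of glycolysis, Hprt of purine salvage, Sdha of the citric acid cycle and respiratory chain), protein folding and signalling adaptors (Ppia, cyclophilin A, and Ywhaz, 14-3-3 zeta), transcription (Tbp, the TATA-box binding protein) and the lysosome (Gusb, beta-glucuronidase). TGFB1 is known to reorganize the cytoskeleton and metabolism of fibroblasts, the functions to which several of these genes belong.

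Levels are given in RPKM, reads per kilobase of transcript scaled to the mapped reads of the library. The 4 libraries had similar depth, 56140000 to 57300000 mapped reads as recovered from the steps of the RPKM values. The labels were checked with Hmga2, which stood at 14.8 and 40.7 RPKM in the Hmga2+/+ Ctrl and TGFB1 libraries and was listed at 0 in both Hmga2-/- libraries, and with Ctgf, a TGFB1 target, which was higher with TGFB1 in both genotypes (13.2 and 173 RPKM in Hmga2+/+, 24.9 and 359 in Hmga2-/-). All 10 fibroblast markers examined reached 1 RPKM in at least 1 library, Lum only in Hmga2+/+ Ctrl (1.08, against 0.246 to 0.708 elsewhere). Of the markers of other cells, 1 of 5 epithelial (Krt19), 2 of 4 endothelial (Kdr and Tek), 1 of 4 blood (Cd68) and 0 of 4 striated muscle genes did, and the blood gene Hba-a1 and the muscle genes Myod1 and Ckm were at 0. The summed RPKM of the epithelial list was 2.62 and 2.96 in the Hmga2+/+ libraries against 5.33 and 5.76 in the Hmga2-/- libraries, and of the endothelial list 3.89 and 4.86 against 7.12 and 8.14. Krt19 made most of the epithelial sums, at 1.898 and 1.924 RPKM in Hmga2+/+ against 4.925 and 4.935 in Hmga2-/-. The other epithelial genes stayed under 1 RPKM in every library, and Epcam was lower in Hmga2-/- in both treatments. Kdr and Tek made nearly all of the endothelial sums, while Pecam1 and Cdh5 stayed at or below 0.048 RPKM. With TGFB1 Kdr was higher and Tek lower in both genotypes (1.11 to 4.46 and 2.75 to 0.33 RPKM in Hmga2+/+). The part of these other cell types in the values below was not tested. In such bulk samples fewer cells of a type and less RNA per cell cannot be told apart.

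Some of these genes share most of their sequence with other genes, which bears on how many reads could be assigned to them. The annotated transcript of each gene (GENCODE vM21, GRCm38, the assembly of mm10), limited to the deposited span, was divided into all words of 70 bases, the length of a read of 75 bases after the 5 bases cropped at its start. For Hprt, Tbp, Gusb and Sdha 0 words occurred in another annotated gene. The share was 3.62% for Actb, 18.8% for Ywhaz, 65.1% for Ppia and 75.3% for Tuba1a. For the Gapdh transcript with the longest gene body it was 88.6%, over 130 other genes of which 123 are annotated as pseudogenes. Only annotated genes were searched, so these shares are lower limits.

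Tuba1a, Tuba1b and Tuba1c lie near each other on chromosome 15 and encode nearly the same alpha tubulin. Over the first 1200 coding bases Tuba1a was 98.2% identical to Tuba1b and 98.3% identical to Tuba1c. The following 60 coding bases (positions 640 to 699, counted from 1 at the first coding base, each within 1 exon) hold the largest number of differences in any such window, 10, and are shown because reads can be told apart only where the genes differ. Capitals mark the positions that differ. The Tuba1a stretch is at chr15:98950691-98950750 on the minus strand, the Tuba1b stretch at chr15:98932239-98932298 on the minus strand and the Tuba1c stretch at chr15:99037299-99037358 on the plus strand.
Tuba1a: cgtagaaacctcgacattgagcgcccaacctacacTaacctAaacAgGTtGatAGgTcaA
Tuba1b: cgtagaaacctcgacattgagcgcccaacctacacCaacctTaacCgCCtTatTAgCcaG
Tuba1c: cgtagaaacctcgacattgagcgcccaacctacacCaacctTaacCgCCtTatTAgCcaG

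For Gapdh, the coding word of 70 bases carried by the largest number of other annotated genes, 51, is at chr6:125162872-125162941 on the minus strand. It is shown as an example of sequence from which a read cannot be placed on Gapdh alone.
Gapdh: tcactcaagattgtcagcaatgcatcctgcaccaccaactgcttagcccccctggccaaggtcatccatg

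Tuba1a (uc007xok.1, chr15:98949847-98953501, minus strand, 1584 bases) was the only member at least 1.5-fold lower under TGFB1 in Hmga2+/+ MEF. Sdha and Gusb were also lower there, but within 1.5-fold. It stood at 23.2 RPKM in Hmga2+/+ Ctrl, 14.8 in Hmga2+/+ TGFB1, 21.1 in Hmga2-/- Ctrl and 19.3 in Hmga2-/- TGFB1. Thus the Hmga2+/+ TGFB1 library was low and the other 3 lay close together. On the log2 scale the TGFB1 change was -0.65 in Hmga2+/+, a 1.57-fold lower level, with an exact 95% interval of -0.75 to -0.56. This interval and the others below come from the recovered reads and cover counting error only. In Hmga2-/- MEF the change was -0.13 (-0.22 to -0.03), and the changes in the 2 genotypes differed by 0.53 with a counting standard error of 0.07. The Hmga2-/- level was 0.14 log2 units below Hmga2+/+ in Ctrl and 0.39 above it in TGFB1.

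Hprt (uc009ter.1, chrX:52988078-53021660, plus strand, 1332 bases), the enzyme that returns hypoxanthine and guanine to the nucleotide pool, moved the other way. Its level was 25.3 RPKM in Hmga2+/+ Ctrl, 44.3 in Hmga2+/+ TGFB1, 31.4 in Hmga2-/- Ctrl and 55.2 in Hmga2-/- TGFB1. Both TGFB1 libraries were above both Ctrl libraries. The log2 change under TGFB1 was 0.81 in both genotypes (0.72 to 0.89 in Hmga2+/+, 0.74 to 0.88 in Hmga2-/-), and the level was higher in Hmga2-/- by 0.31 in Ctrl and 0.32 in TGFB1.

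Since the study names these genes as its references, the bases upstream of their start are shown, as RefSeq gives them for GRCm38.p6. The 250 bases before the start were searched on both strands for the SMAD core CAGAC, the TATA box TATAAA, the CCAAT box (its 5 letters), the GC box GGGCGG and the CArG box bound by SRF. Here capitals mark the matches, none of which overlap. The window of Tuba1a is chr15:98953502-98953751 on the minus strand and that of Hprt is chrX:52987828-52988077 on the plus strand.
Tuba1a: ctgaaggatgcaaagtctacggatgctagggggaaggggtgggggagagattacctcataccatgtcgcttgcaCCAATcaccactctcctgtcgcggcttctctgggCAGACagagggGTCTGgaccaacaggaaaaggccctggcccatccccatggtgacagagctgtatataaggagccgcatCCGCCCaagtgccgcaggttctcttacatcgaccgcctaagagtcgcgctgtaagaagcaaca
Hprt: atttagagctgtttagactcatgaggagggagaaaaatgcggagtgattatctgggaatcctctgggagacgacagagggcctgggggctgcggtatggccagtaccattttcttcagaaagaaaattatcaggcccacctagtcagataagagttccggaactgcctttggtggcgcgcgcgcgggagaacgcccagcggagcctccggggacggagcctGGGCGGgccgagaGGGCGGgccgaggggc

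The Tuba1a window holds 2 CAGAC, 1 CCAAT and 1 GC box match and the Hprt window 2 GC box matches. Among 32851 windows of the same length, 42.2% hold CAGAC, 33.8% CCAAT, 32.7% a GC box, 12.4% TATAAA and 1.47% a CArG box. A match is a description of the letters and not a binding site. RefSeq windows were matched for 7 of the 9 genes, and Actb and Ywhaz were not matched.

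Gapdh, the glycolytic glyceraldehyde-3-phosphate dehydrogenase, depended on the deposited transcript. The transcript with the longest gene body (uc033iut.1, chr6:125161852-125166467, minus strand, 1261 bases) was under 1 RPKM in every library, at 0.395 in Hmga2+/+ Ctrl, 0.692 in Hmga2+/+ TGFB1, 0.518 in Hmga2-/- Ctrl and 0.863 in Hmga2-/- TGFB1, which corresponds to only 28 to 62 reads. Its log2 change under TGFB1 was 0.81 in Hmga2+/+ and 0.74 in Hmga2-/-, with wide intervals of 0.11 to 1.53 and 0.13 to 1.36. The transcript with the highest RPKM (uc009dts.2, chr6:125161852-125165773, 1409 bases) stood at 19.3 in Hmga2+/+ Ctrl, 33.5 in Hmga2+/+ TGFB1, 23.1 in Hmga2-/- Ctrl and 34.8 in Hmga2-/- TGFB1. Both transcripts were high in both TGFB1 libraries. The change of the latter was 0.79 (0.70 to 0.88) in Hmga2+/+ and 0.59 (0.51 to 0.68) in Hmga2-/-.

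The 2 Gapdh transcripts, as annotated, have 7 exons each and share 6 of them. They differ in the first exon, which is 222 bases long in the transcript with the higher level (chr6:125165552-125165773). Between 97.8% and 98.2% of the reads of that transcript (1502 of 1530 in Hmga2+/+ Ctrl) were not counted on the other one. Per base of the first exon these reads amounted to 121, 209, 144 and 216 RPKM in the order given above. Of the 70-base words that start in the other 6 exons, 94.4% occur in another annotated gene, against 11.3% of those starting in the first exon. Hence the RPKM of the higher Gapdh transcript describes mainly its first exon.

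Actb (uc009ajk.2, chr5:142903115-142906754, minus strand, 1909 bases) was by far the highest of the 9 genes. It stood at 787 RPKM in Hmga2+/+ Ctrl, 1111 in Hmga2+/+ TGFB1, 981 in Hmga2-/- Ctrl and 1478 in Hmga2-/- TGFB1. Each TGFB1 library was above both Ctrl libraries, and each Hmga2-/- library above the Hmga2+/+ library of the same treatment. The log2 change under TGFB1 was 0.50 (0.48 to 0.51) in Hmga2+/+ and 0.59 (0.58 to 0.60) in Hmga2-/-, the latter 1.51-fold and so just past the 1.5-fold used here. Hmga2-/- was above Hmga2+/+ by 0.32 in Ctrl and 0.41 in TGFB1.

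The remaining 5 genes stayed within 1.5-fold in every comparison. Ppia (uc007hyn.1, chr11:6415870-6419810, plus strand, 727 bases), a peptidyl-prolyl isomerase, was at 59.8, 65.3, 64.7 and 62.0 RPKM in Hmga2+/+ Ctrl, Hmga2+/+ TGFB1, Hmga2-/- Ctrl and Hmga2-/- TGFB1, with TGFB1 changes of 0.13 and -0.06. Tbp (uc008aon.2, chr17:15499888-15517427, plus strand, 1874 bases), a subunit shared by the initiation factors of all nuclear RNA polymerases, was at 11.5, 13.2, 11.3 and 12.9 RPKM. Its TGFB1 changes were 0.19 and 0.20, and the genotypes differed by -0.03 in both treatments. Thus Tbp separated treatments slightly and genotypes hardly at all.

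Gusb (uc008ztt.1, chr5:129989021-130002828, minus strand, 2433 bases), which removes glucuronic acid from glycosaminoglycans in lysosomes, was at 12.7, 11.3, 11.5 and 10.8 RPKM in the same order, with changes of -0.17 and -0.10. Ywhaz (uc029son.1, chr15:36770262-36796929, minus strand, 3313 bases), an adaptor that binds phosphorylated proteins, was at 26.8, 32.2, 24.3 and 29.4 RPKM, with changes of 0.26 and 0.27. Sdha (uc007rfa.1, chr13:74322255-74350240, minus strand, 2830 bases), the flavoprotein of succinate dehydrogenase, was at 29.7, 23.8, 29.9 and 28.9 RPKM, with changes of -0.32 (-0.38 to -0.26) and -0.05 (-0.11 to 0.01). As for Tuba1a, the Hmga2+/+ TGFB1 library of Sdha stood below the other 3. The TGFB1 change of Sdha differed between the genotypes by 0.27 with a counting standard error of 0.04, that of Ywhaz by 0.01 and those of Hprt and Tbp by less.

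**Figure D1:**
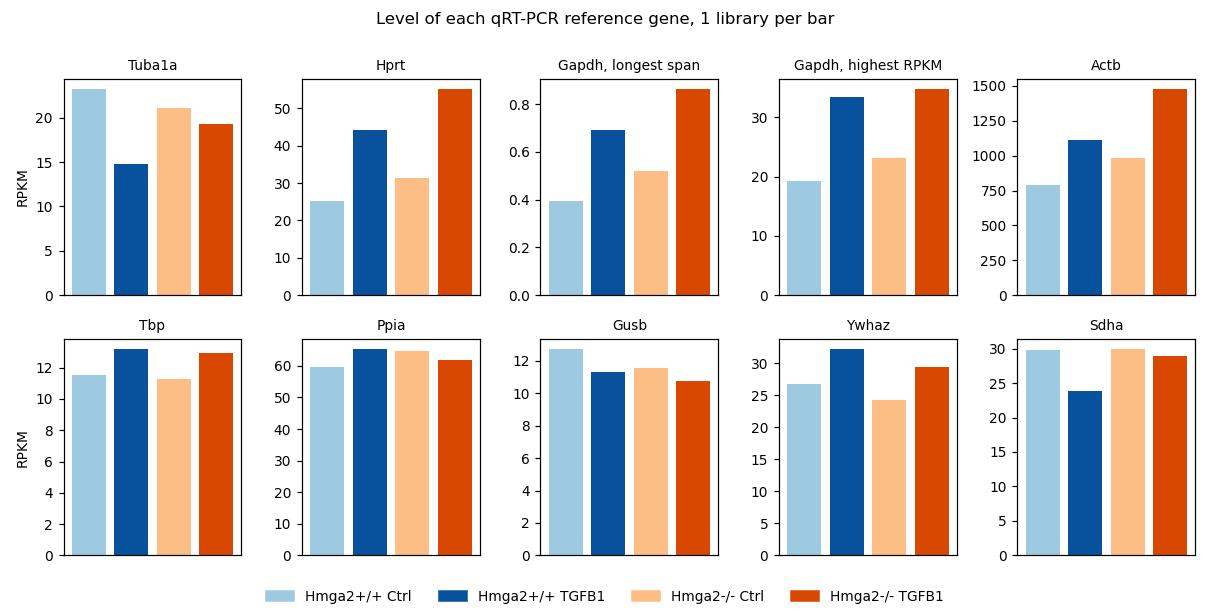
RPKM (vertical axes, each starting at 0) of the 9 reference genes in the 4 libraries, 1 bar per library, with both Gapdh transcripts. Hprt, Gapdh and Actb were higher in both TGFB1 libraries, Tuba1a and Sdha were lowest in Hmga2+/+ TGFB1, and Ppia stayed between 59.8 and 65.3 RPKM.

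Ordered by mean RPKM over the 4 libraries, Actb (1089) was followed by Ppia (62.9), Hprt (39.1), Ywhaz (28.2), Sdha (28.1), Gapdh by its higher transcript (27.7), Tuba1a (19.6), Tbp (12.2) and Gusb (11.6). The ranges of Ywhaz, Sdha, Gapdh and Hprt overlapped, as did those of Tuba1a and Gapdh and those of Tbp and Gusb. The ranges of Actb and Ppia overlapped with none of the other 8 genes. This order is one of RPKM and not of transcript amount. The Gapdh value describes mainly its first exon, over whose bases alone it was 121 to 216 RPKM. That figure cannot be set beside the whole-transcript values of the other genes. Shared sequence also limits the values of Tuba1a and Ppia.

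Members were counted against a fold of 1.5, the study's own limit for TGFB1-inducible genes, and beside the 10737 protein-coding genes that reached 1 RPKM in any library. In Hmga2+/+ MEF 2 of the 9 genes (Hprt and Gapdh) were at least 1.5-fold higher with TGFB1, against 11.4% of all genes, and 1 (Tuba1a) was at least 1.5-fold lower, against 16.8%. In Hmga2-/- MEF 3 (Hprt, Gapdh and Actb) were higher, against 13.1%, and 0 were lower, against 15.1%. Between genotypes 0 of the 9 passed 1.5-fold. The background was 2.37% higher and 1.64% lower in Ctrl, and 3.11% higher and 1.98% lower in TGFB1. With only 9 genes, nothing particular to the reference genes is read from these counts. Where a gene passed the limit in only 1 genotype, here and in the lists below, the difference between genotypes was not tested. By the deposited transcript of the longest gene body, Gapdh itself was below the 1 RPKM limit and the other 8 genes passed it.

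**Figure D2:**
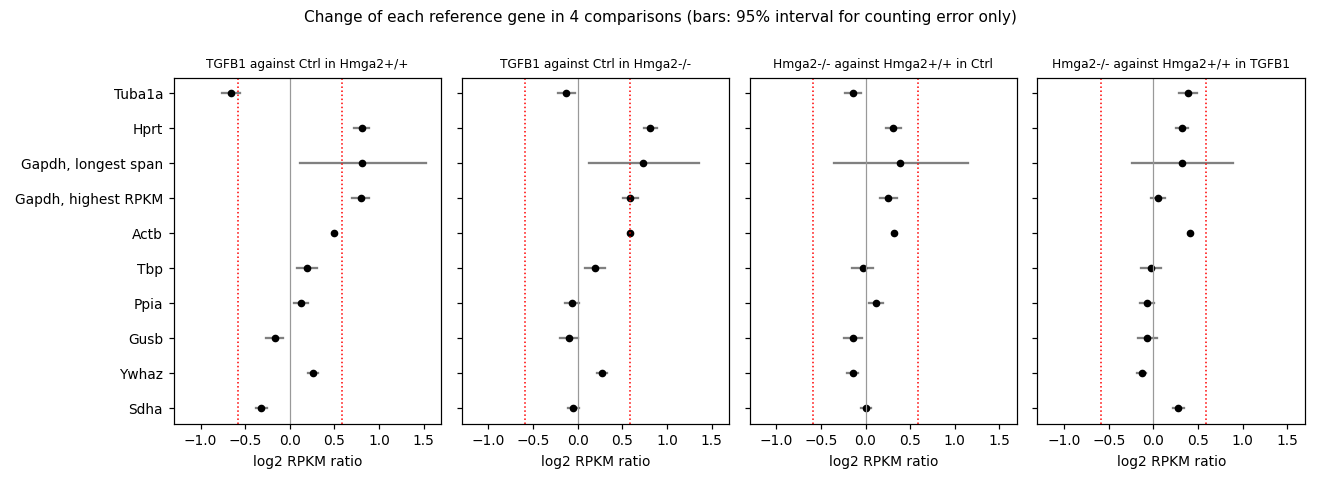
Log2 ratio of RPKM (horizontal axes) of each reference gene in 4 comparisons between libraries, with 95% intervals for counting error only and dotted lines at 1.5-fold. Hprt and Gapdh lie near 0.8 in the first panel while Tuba1a lies at -0.65, and no gene passes a dotted line in either comparison of genotypes.

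The ratio of the highest to the lowest RPKM over the 4 libraries was smallest for Ppia (1.09), followed by Tbp (1.17), Gusb (1.18), Sdha (1.26), Ywhaz (1.33), Tuba1a (1.57), Actb (1.88), Hprt (2.18) and Gapdh (2.18, or 1.80 by its higher transcript). The median of this ratio was 1.36 over the 9745 protein-coding genes with at least 1 RPKM in every library. Thus 5 of the 9 genes varied less than this median and 4 varied more. The ratio of Hprt exceeded that of 90.3% of these 9745 genes, and the ratio of Ppia exceeded that of 5.01%. Over the 3525 genes with at least 10 RPKM in every library the median was 1.29, and Ywhaz then lay above it.

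A measure used to rank reference genes for qRT-PCR is the pairwise variation, the mean over the other 8 genes of the SD of the log2 ratio between 2 genes, in which any scaling of a library cancels. It was lowest for Tbp (0.27) and Ppia (0.28), then Ywhaz (0.30), Gusb (0.33), Sdha (0.33), Actb (0.35), Gapdh (0.42) and Hprt (0.42), and highest for Tuba1a (0.44). The genes named by the study were therefore last in this ranking. With the transcripts of highest RPKM the order of these last 2 was exchanged (Tuba1a 0.42, Hprt 0.45), and Tbp and Ppia stayed first and second. Because the 4 libraries are 4 conditions without replicates, neighbours in both rankings could not be told apart by any error.

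**Figure D3:**
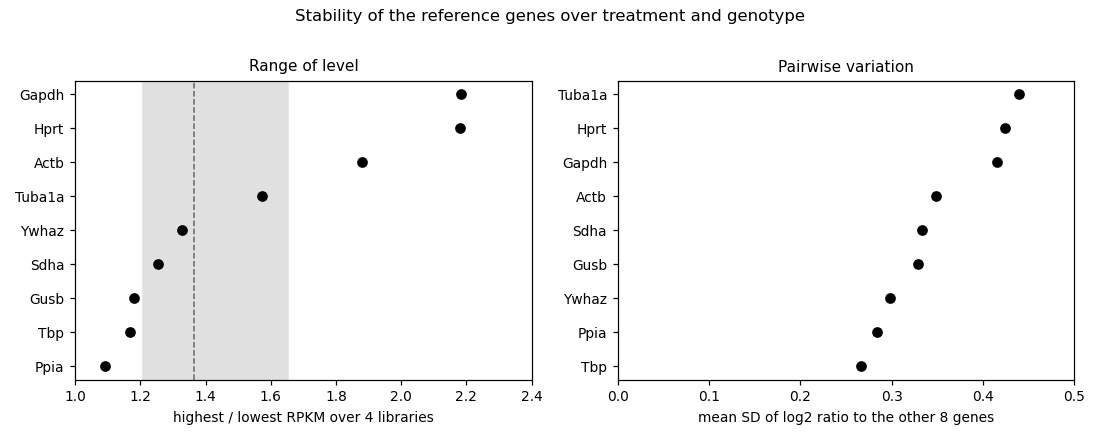
Left, highest over lowest RPKM of each reference gene over the 4 libraries, with the median (dashed, 1.36) and the middle quartiles (grey) of 9745 protein-coding genes. Right, the mean SD of the log2 ratio of each gene to the other 8, which ran from 0.27 for Tbp to 0.44 for Tuba1a.

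Of the 36 pairs that the 9 genes form, Tuba1a and Hprt had the least constant ratio. Tuba1a over Hprt was 0.917 in Hmga2+/+ Ctrl, 0.333 in Hmga2+/+ TGFB1, 0.67 in Hmga2-/- Ctrl and 0.35 in Hmga2-/- TGFB1, a change of 2.75-fold under TGFB1 in Hmga2+/+ and 1.92-fold in Hmga2-/-. As the 2 genes moved in opposite directions in Hmga2+/+ MEF, their geometric mean changed by only 0.08 on the log2 scale there. In Hmga2-/- MEF, where Tuba1a changed less, the same mean was higher by 0.34 with TGFB1. Between genotypes it differed by 0.09 in Ctrl and by 0.35 in TGFB1. By the transcripts of longest gene body, the most constant geometric mean was that of Ppia and Gusb, whose highest and lowest values differed 1.07-fold, followed by Tbp and Gusb (1.07) and Ywhaz and Sdha (1.08), against 1.35 for Tuba1a and Hprt and 2.18 for Hprt and Gapdh. A constant ratio did not mark a constant level: by the transcripts of longest gene body, Hprt and Gapdh had the smallest SD of the log2 ratio among the 36 pairs (0.04) and the geometric mean with the widest range. This rests on the Gapdh transcript with 28 to 62 reads. With the transcripts of highest RPKM that SD was 0.13, behind Tbp and Gusb (0.08) and Tbp and Ppia (0.11), and the geometric mean with the widest range was that of Hprt and Actb (2.02, against 1.98 for Hprt and Gapdh). The order of the constant pairs changed as well, with Tbp and Ppia first (1.03), then Ppia and Gusb (1.06) and Ywhaz and Sdha (1.06), and Tbp and Gusb at 1.11. Here Tbp was represented by a transcript of 712 bases that covers only part of the gene. By the transcripts of longest gene body Tbp and Ppia stood at 1.12.

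To show what the choice of reference does, the TGFB1 change of 7 genes was divided by that of each reference gene. The targets were Gata6, a GATA transcription factor, Mtor and Rptor, the kinase and a subunit of mTOR complex 1, and Igf1, a growth factor, all of them assayed in the study, and the TGFB1-induced genes Acta2 (smooth muscle actin), Fn1 (fibronectin) and Ctgf (a matricellular protein). In Hmga2+/+ MEF the 9 references spread each target over 1.46 log2 units, with Tuba1a giving the highest and Gapdh the lowest change. Here and below Gapdh is its transcript of longest gene body, with 28 to 62 reads. By its higher transcript Gapdh changed by 0.79, less than Hprt at 0.81, so that Hprt would give the lowest change.

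Mtor stood at 8.15 RPKM in Hmga2+/+ Ctrl and 8.54 in Hmga2+/+ TGFB1. The change of 0.07 became 0.72 relative to Tuba1a, -0.74 relative to Hprt and -0.01 relative to their geometric mean, and its sign was positive with 3 references and negative with 6. Rptor (5.73 and 7.01 RPKM) went from 0.29 to 0.95 relative to Tuba1a and -0.52 relative to Hprt. Gata6 (1.45 and 1.20 RPKM) went from -0.28 to 0.38 relative to Tuba1a and -1.08 relative to Hprt. The direction of these 3 targets thus depended on whether Tuba1a or Hprt was used.

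For Igf1 (1.48 and 0.825 RPKM) the sign was negative with all 9 references, from -1.65 with Gapdh to -0.19 with Tuba1a. By qRT-PCR the study reports higher Gata6, Mtor and Igf1 expression with TGFB1 in Hmga2+/+ MEF. The Igf1 values here, near 1 RPKM and from 1 library per group, went the other way. Gata6 was also lower in deposited RPKM (-0.28), and Mtor changed by only 0.07. Relative to Tuba1a both were positive (0.38 and 0.72), but Gata6 was negative with 7 of the 9 references and Mtor with 6. The reasons were not tested. Acta2 (15.9 and 58.3 RPKM) and Ctgf passed 1.5-fold with all 9, at 1.07 to 2.53 for Acta2 and 2.90 to 4.36 for Ctgf. Fn1 (465 and 818 RPKM) was positive with all 9 but past 1.5-fold with 5, since its change was close to that of Hprt (0.01 relative to it).

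In Hmga2-/- MEF the references spread each target over 0.94 log2 units, with Tuba1a again highest and Hprt lowest. Mtor (8.46 RPKM in Ctrl, 8.08 in TGFB1) was at 0.06 relative to Tuba1a, -0.88 relative to Hprt and -0.41 relative to their mean. Between genotypes the spread was smaller, 0.54 log2 units in both treatments, and Igf1 was lower in Hmga2-/- with all 9 references in Ctrl (-1.42 to -0.88) and in TGFB1 (-0.78 to -0.24).

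**Figure D4:**
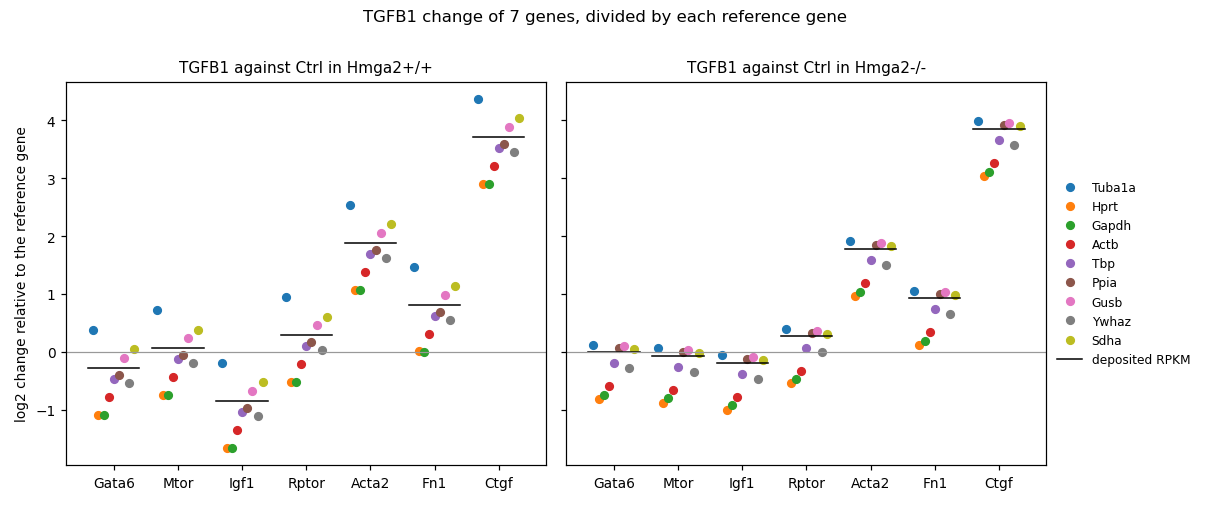
Log2 change under TGFB1 of 7 genes (horizontal axis), divided by each of the 9 reference genes (coloured points), beside the change in deposited RPKM (black lines), in Hmga2+/+ (left) and Hmga2-/- (right). Gapdh is taken by its transcript of longest gene body. In Hmga2+/+ the points of Mtor run from -0.74 to 0.72, while all points of Acta2 and Ctgf lie above 1.

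For each reference gene the most similar patterns were sought among the 3525 protein-coding genes with at least 10 RPKM in every library, by the Euclidean distance of 4 log2 RPKM values centred on their mean. Tuba1a was nearest to Ndufa5 (54.4, 37.6, 52.6 and 45.2 RPKM), a complex I subunit, at a distance of 0.11, then Gsn and Elob. The genes nearest to Hprt were Tpm4, a tropomyosin (170, 293, 213 and 371 RPKM, distance 0.02), Ppp1r15a and Actr3, an Arp2/3 subunit. For Actb they were Fermt2, a kindlin of integrin adhesions (37.4, 53.3, 46.2 and 69.6 RPKM, distance 0.02), Pop4 and Psmd8. The higher Gapdh transcript was nearest to Utp14a, Ctps and Nol11, and the transcript with the longest gene body to Tpm4, Hprt and Actr3. Tbp was nearest to Pkn2 (28.3, 32.4, 27.7 and 31.8 RPKM, distance 0.0021). Snrpe and Gna13 followed for Tbp, Zfp638, Tnrc6a and Nudcd3 for Ppia, Nr3c1, Spats2 and Srrm1 for Gusb, Rdh11, Dcbld2 and Zcchc14 for Ywhaz, and Vps4a, Ecm1 and App for Sdha. With 4 values per gene such likeness is only a description. The smallest ratios of highest to lowest RPKM among these 3525 genes, 1.02, were those of Lnpep (22.6 to 23.0 RPKM), Bmpr1a (38.8 to 39.5), Ttk, Kansl1 and Npepps.

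The families and pathways of the reference genes were examined by lists, each counted at 1.5-fold over the members that reached 1 RPKM. The shares of all 10737 genes to set beside these counts are those given above, 11.4% higher and 16.8% lower with TGFB1 in Hmga2+/+ and 13.1% higher and 15.1% lower in Hmga2-/-. For Hmga2-/- against Hmga2+/+ they are 2.37% higher and 1.64% lower in Ctrl, and 3.11% higher and 1.98% lower in TGFB1. Among 25 other genes in use as references, 4 were higher with TGFB1 in Hmga2+/+ and 6 in Hmga2-/-, and 0 were lower in either. The transferrin receptor Tfrc went from 33.7 to 121 RPKM with TGFB1 in Hmga2+/+ MEF, and in Hmga2-/- MEF from 39.1 to 126. The glycolytic Pgk1 went from 22.4 to 52.1 RPKM in Hmga2+/+, with log2 changes of 1.22 and 1.12. Ubxn2a and Mrpl19 were also past 1.5-fold in both genotypes, and Cyc1 and Rps18 in Hmga2-/- alone, at 0.60 and 0.64 against 0.30 and 0.39 in Hmga2+/+. The highest gene of this list, B2m, the invariant chain of MHC class I, was at 1068, 907, 1054 and 925 RPKM. The median log2 change of the list was 0.32 in Hmga2+/+ and 0.21 in Hmga2-/-, beside -0.05 and 0.01 over all 10737 genes.

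Of 9 other alpha and beta tubulins that reached 1 RPKM (Tuba8 and Tubb4a did not), 0 were at least 1.5-fold lower. The nearest relatives of Tuba1a did not share its lower level in Hmga2+/+ TGFB1: Tuba1b stood at 29.6, 28.4, 29.8 and 29.5 RPKM and Tuba1c at 6.97, 8.07, 6.92 and 9.003. Of the 70-base words, 81.0% of those of Tuba1b and 57.5% of those of Tuba1c occur in another annotated gene. These other genes include pseudogenes, 10 of 13 for Tuba1b and 11 of 14 for Tuba1c. How reads of shared sequence were divided among the 3 genes was not tested. Tubb2a was closest to the limit, with changes of -0.58 and -0.56. The neuronal beta tubulin Tubb3 went from 0.913 to 2.81 RPKM in Hmga2+/+ MEF (0.957 to 4.37 in Hmga2-/-), and Tubb6 passed 1.5-fold in Hmga2-/- (0.60, against 0.49 in Hmga2+/+). Tubb5, the highest of the list, was at 235, 194, 235 and 214 RPKM.

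Of the 4 other actins that reached 1 RPKM (Actc1 did not), Acta2, Acta1 and Actg2 were past 1.5-fold in all 4 comparisons. Acta2 stood at 15.9, 58.3, 48.2 and 165 RPKM in Hmga2+/+ Ctrl, Hmga2+/+ TGFB1, Hmga2-/- Ctrl and Hmga2-/- TGFB1. Acta1 had only 6 reads in Hmga2+/+ Ctrl and 234 in Hmga2-/- TGFB1. Actg1, cytoplasmic gamma-actin and like Actb not specific to muscle, was at 131, 170, 157 and 218 RPKM, with changes of 0.38 and 0.48 under TGFB1. The order of the libraries was the same as for Actb.

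Of 15 glycolytic genes other than Gapdh, 9 were at least 1.5-fold higher and 3 lower with TGFB1 in each genotype, with medians of 0.77 and 0.72. Of all genes, 11.4% and 13.1% were higher and 16.8% and 15.1% lower. The change of Gapdh, 0.79 and 0.59 by its higher transcript, was thus close to the median of its pathway. The higher genes were Hk2 (1.91 to 7.96 RPKM in Hmga2+/+), Pfkl, Pgk1, Eno1, Pgam1, Ldha, Pkm, Aldoa and Gpi1. The lower ones were Pfkm (7.59 to 3.22 RPKM), Aldoc and Eno2. The highest glycolytic gene in Hmga2+/+ Ctrl was Pkm, at 110, 202, 130 and 214 RPKM. Between genotypes only Aldoc passed 1.5-fold, with -0.72 in Ctrl.

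Of 15 other genes of purine salvage and synthesis (Pnp could not be named in the table), 4 were higher and 2 lower in Hmga2+/+, and 6 higher and 0 lower in Hmga2-/-. The shares of all genes were 11.4% higher and 16.8% lower in Hmga2+/+ and 13.1% and 15.1% in Hmga2-/-. The higher ones in both were Ppat, Gart, Pfas and Atic, enzymes of the de novo pathway to inosine monophosphate (Pfas, 6.80 to 12.9 RPKM in Hmga2+/+ and 5.75 to 12.6 in Hmga2-/-), joined in Hmga2-/- by Adsl and Impdh1 (0.61 and 0.91, against 0.45 and 0.53 in Hmga2+/+). Ada and Prps2 were lower in Hmga2+/+ (-0.64 and -0.63), and Ada was at 2.58 RPKM in Hmga2+/+ TGFB1 against 4.69 in Hmga2-/- TGFB1. The highest gene of the list, Paics, had changes of -0.06 and 0.02. Aprt, the salvage enzyme for adenine, had changes of 0.27 and 0.40, below those of Hprt.

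**Figure D5:**
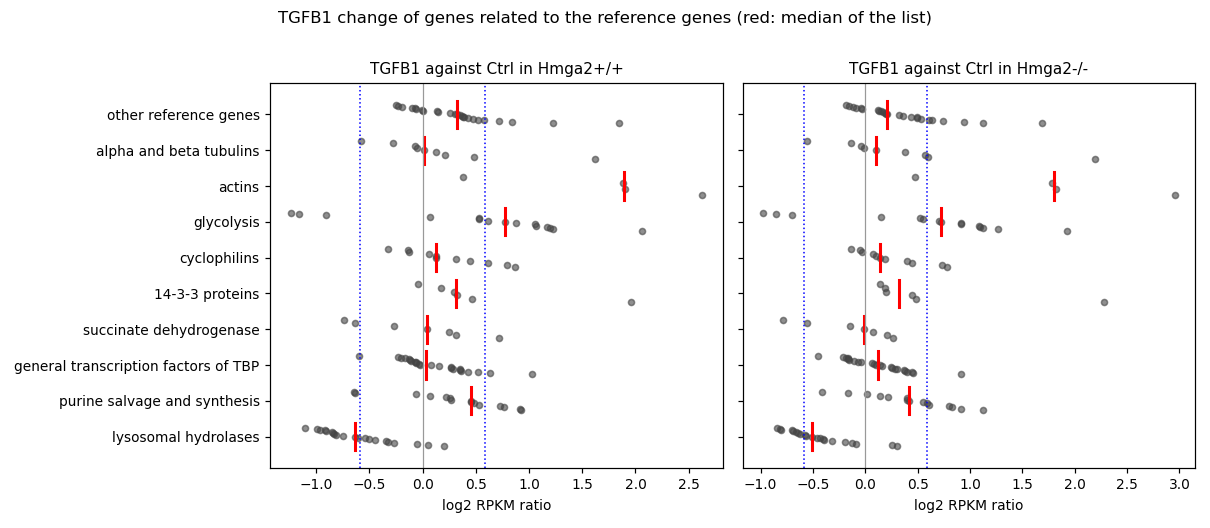
Log2 change under TGFB1 (horizontal axes) of the genes related to the reference genes, 1 point per gene that reached 1 RPKM in any library, with the median of each list in red and dotted lines at 1.5-fold. The lists of actins and of glycolysis had medians above the right line in both genotypes, and that of lysosomal hydrolases was at -0.63 in Hmga2+/+ and -0.51 in Hmga2-/-.

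Of 21 lysosomal hydrolases other than Gusb, 12 were at least 1.5-fold lower with TGFB1 in Hmga2+/+, where 16.8% of all genes were, and 8 in Hmga2-/-, where 15.1% were. In neither genotype was any of them 1.5-fold higher. Their medians were -0.63 and -0.51, so that Gusb, at -0.17 and -0.10, changed less than most of its functional class. Examples are Arsa (4.61 to 2.14 RPKM in Hmga2+/+, 3.42 to 2.19 in Hmga2-/-), Man2b1 (12.8 to 6.44, 11.8 to 7.65) and Hexa (41.9 to 23.8, 35.9 to 20.4). Glb1, Gaa, Manba, Idua, Ids, Arsb, Galns and Ctsa were also past the limit in Hmga2+/+. The proteases Ctsd, the highest of the list (113, 118, 107 and 127 RPKM), and Ctsl had positive changes in both genotypes.

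The relatives of Ppia, Ywhaz, Sdha and Tbp were counted in the same way. Of 11 cyclophilins other than Ppia, Ppid (31.3 to 57.3 RPKM in Hmga2+/+), Ppie and Ppif were higher in Hmga2+/+ and Ppid and Ppif in Hmga2-/-, while the highest, Ppib, an endoplasmic reticulum cyclophilin, changed by 0.13 and 0.07. Of the 6 other 14-3-3 genes only Sfn, 14-3-3 sigma, passed 1.5-fold. It did so in all 4 comparisons (1.69, 6.57, 3.05 and 14.7 RPKM), and the highest, Ywhae, changed by 0.17 and 0.19.

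Of the 7 other succinate dehydrogenase subunits and assembly factors, Sdhc, a membrane anchor, was lower in Hmga2+/+ (25.5 to 16.4 RPKM, -0.64) and stood at -0.56 in Hmga2-/- (26.8 to 18.2 RPKM). Sdhaf4 was lower in both genotypes (-0.74 and -0.79) and Sdhaf3, at 1.11 to 1.82 RPKM, higher in Hmga2+/+. Of 24 factors that work with Tbp or resemble it, Taf1d (106 to 216 RPKM in Hmga2+/+, 118 to 224 in Hmga2-/-), a subunit of the RNA polymerase I factor SL1 and the highest of the list, was higher in both genotypes. Taf1a was higher and Brf1 lower in Hmga2+/+ alone (0.63 and -0.60). Btaf1, which removes TBP from DNA, was the single gene of this list past 1.5-fold between genotypes: 20.6 and 24.8 RPKM in Hmga2+/+ Ctrl and TGFB1 against 12.05 and 15.6 in Hmga2-/-. Tbp itself differed between genotypes by -0.03.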

How the data were processed

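Total RNA of 4 MEF cultures was sequenced by the authors with the SMARTer Stranded Total RNA kit on a NextSeq500 (single reads of 75 bases). The authors trimmed reads with Trimmomatic, aligned them to mm10 with HISAT2 2.1.0 and counted them with HOMER, which gave the deposited RPKM values per UCSC known gene transcript. Per the file headers, exon reads of the sense strand were counted, whereas the methods name whole genes. HISAT2 and the HOMER tag libraries were run with default settings, and what these did with reads that align to several places was not examined.

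Transcripts were named by GENCODE vM21 genes covering at least 50% of their span on the same strand (57708 of 63759 named), and the longest gene body stood for a gene. Mapped reads per library were recovered as the depth at which short, low transcripts gave whole reads (100% within 0.1 of a whole number), and reads per transcript from it. The detection limit of 3 reads was 0.0524 to 0.0534 RPKM for 1000 bases. Intervals are exact (Clopper-Pearson, 95%) and cover counting error only, since reads without molecular identifiers are not independent molecules. Values of 0 were set to 0.001 RPKM, as in the study. The computation was checked on simulated reads (Python, scipy) with known depth, known changes and counting error alone. That check does not bear on variation between cultures or on reads of shared sequence. Alternatives were 2 rescalings, the transcript with the highest mean RPKM, a pseudocount of 1, other fold limits and other filters. The members and lists were chosen with earlier results of these data known. Named genes were the members, the 7 targets, Hmga2, the list genes past 1.5-fold (1 is not reported here) and the highest of each list, the 3 nearest patterns and the 5 smallest ranges. Relatives of a member below these limits (Tuba1b, Tuba1c, Tubb2a, Aprt, Ctsl) were named after their values were seen.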

Additional observations from a re-analysis of the deposited data

Results flagged for a closer look

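The TGFB1 change of 2 genes had opposite signs in the genotypes. Ppia changed by 0.13 on the log2 scale in Hmga2+/+ and by -0.06 in Hmga2-/-, a difference of -0.19. Mtor changed by 0.07 and -0.07, a difference of -0.13. With 1 library per group neither difference was tested, and all 4 changes are below 1.5-fold.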

How the results depend on the processing

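No paired analysis was possible because the groups share only 1 replicate number, and a fit that pools the genotypes was not run. With 1 library per group no replicate could be left out. Rescaling by the median ratio or the upper quartile shifted a comparison by at most 0.09 on the log2 scale, turned no change past 1.5-fold around, and took Actb in Hmga2-/- below 1.5-fold (0.56 and 0.50, against 0.59), leaving 2 higher genes there. With a pseudocount of 1, Gapdh, which is low by its longest gene body, was past 1.5-fold in neither genotype, leaving 1 higher gene (Hprt) in Hmga2+/+ and 2 (Hprt and Actb) in Hmga2-/-. At a limit of 25% in place of 1.5-fold, 1 gene (Gapdh) was higher in Hmga2-/- in Ctrl and 2 (Tuba1a and Actb) in TGFB1. That Gapdh value came from the transcript of longest gene body, with 28 reads in Hmga2+/+ Ctrl and 37 in Hmga2-/- Ctrl. Its higher transcript was at 1.19-fold. At 2-fold, 0 genes were higher or lower in Hmga2+/+ and 0 higher in Hmga2-/-. The shares of all genes at these other limits are not given here, so nothing is read from these counts. The share of all genes past 1.5-fold between genotypes, 4.00% in Ctrl and 5.09% in TGFB1, was 2.32% and 3.15% over genes with at least 10 RPKM, and 15.2% and 15.9% without a filter. Of 60 counts and shares recomputed, 50 stayed within 1.5 times. Of 227 single-gene values recomputed, 208 moved by less than the counting interval or the limit set for them. Among the 19 others, the TGFB1 change of Tbp in Hmga2+/+ was -0.06 by the transcript of highest RPKM, which covers only part of the gene, against 0.19. The depth leaves the Gapdh transcript of longest gene body with few reads, and the shared sequence of Tuba1a, Ppia and Gapdh limits what their levels mean.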
